A study of Mus musculus with 9 samples.

Results

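The transcriptome of macrophages given a nanoparticle that also carries a TRAF6 inhibitor was compared with that of macrophages given the particle without it. RAW264.7, a mouse macrophage cell line, was profiled by RNA sequencing, and 6 of the 9 libraries of the series are compared here. The 3 P-Mn@mHSA libraries come from cells treated with nanoparticles that contain nanoenzymes, which are materials with enzyme-like activity. The 3 P-Mn/TI@mHSA libraries come from cells treated with nanoparticles that contain nanoenzymes together with a TRAF6 inhibitor. Both groups were kept in a model condition of unnamed kind. The 3 remaining libraries, from cells in that condition given PBS, serve as a reference level. They were also part of the fit and helped to estimate the spread behind each p-value. Of 56748 genes in the deposited table, the 12454 that passed a filter on low counts were tested. The labels give no dose, exposure time or identity for the inhibitor, and no group received the inhibitor without the particle. The labels speak of triplicates and leave unsaid whether each came from its own culture. Every p-value therefore rests on library-to-library spread alone, and that spread could be purely technical.

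TRAF6 is an adaptor and ubiquitin ligase that sits below Toll-like receptors and the interleukin-1 receptor family. Signals reach it through MyD88 and the IRAK kinases, and it passes them to the kinase TAK1, which activates the IKK complex, NF-kB and the MAP kinases that drive inflammatory genes. Macrophages that sense microbes or foreign nucleic acid also make type I interferon, which acts through its receptor and transcription factors such as STAT2 and IRF9 to switch on a large set of antiviral genes, the interferon-stimulated genes.

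The particle libraries held 14359477 to 15543439 counts each. Correlations of log levels were 0.9881 to 0.9906 within P-Mn@mHSA, 0.99 to 0.9905 within P-Mn/TI@mHSA and 0.985 to 0.99 between them. Of 14 defining macrophage markers, 13 passed the filter, and their summed FPKM (the authors' level per transcript length and depth) was 2600.0 to 2630.0 in P-Mn@mHSA and 2520.0 to 2710.0 in P-Mn/TI@mHSA. Of the defining markers, Mertk was at 0.0 to 0.0163 FPKM and Fcgr3 at 0.3 to 1.28 FPKM in the particle libraries. Most T cell markers (8 of 10, Cd3e and Cd4 among them) had no count in any particle library. The same held for 4 of 8 B cell, 4 of 9 granulocyte, 3 of 9 fibroblast and 4 of 10 epithelial and endothelial markers. The B cell set summed to 20.8 to 22.9 FPKM in P-Mn@mHSA and 21.2 to 22.7 FPKM in P-Mn/TI@mHSA, the largest of these sets. P-Mn@mHSA replicate 2 stood apart: mitochondrial transcripts took 1.79% of its counts, against 1.31 and 1.35% in replicates 3 and 1 of the same group and 1.11 to 1.34% with the inhibitor. On the first principal component of the 6 libraries it lay at -27.0, against -8.7 and -5.8 for replicates 1 and 3, and the P-Mn/TI@mHSA libraries lay at 9.2 to 19.1. Its Gapdh level was 529 CPM (counts scaled to a common library size by TMM), while the other 5 particle libraries had 35.0 to 40.3 CPM.

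Addition of the inhibitor to the particle was accompanied by small shifts in 476 genes, of which 292 were lower and 184 higher in P-Mn/TI@mHSA (edgeR quasi-likelihood test, Benjamini-Hochberg adjusted p under 0.05). These are 3.82% of the genes tested, 2.34% lower and 1.48% higher. The median log2 fold change was -0.43 among genes called lower and 0.32 among those called higher. The median over all tested genes was -0.01 and the median standard error 0.105. Larger shifts were mostly falls: 79 lower and 8 higher genes passed 1.5-fold, and 18 lower and 2 higher genes passed 2-fold. Among the 50 lower genes with the smallest p-values, 26 belonged to a list of 126 interferon-stimulated genes, itself chosen with earlier results known. Over all 292 lower genes 53 (18.2%) were in that list, as were 103 of the 12454 genes tested. Of the 476 calls, 99 held in every one of 9 fits that each left out 1 library. The count was 202 without P-Mn@mHSA replicate 2, 272 without replicate 1 and 794 without replicate 3. Omission of a P-Mn/TI@mHSA library gave 129 (replicate 1), 329 (replicate 2) and 213 (replicate 3). Fold changes also followed the GC content of the transcripts, and an offset that removes this trend within each library, chosen after seeing the data, is called the GC offset here.

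**Figure D1:**
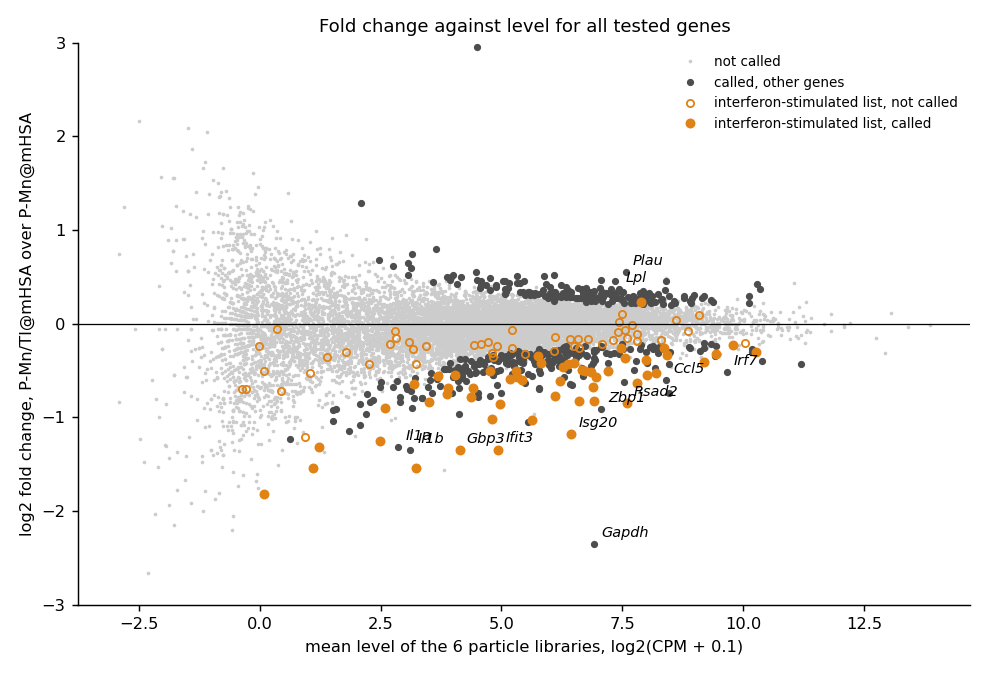
Log2 fold change of P-Mn/TI@mHSA over P-Mn@mHSA (vertical axis) against the mean level of the 6 particle libraries as log2(CPM + 0.1), 1 point per tested gene, with 3 uncalled genes outside the plotted range. Filled orange points are the 54 called genes of the interferon-stimulated list, of which 53 lie below 0, and dark points are other called genes.

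The interferon-stimulated genes carried the clearest pattern. Of the 126 listed, 103 passed the count filter, 53 of these were lower with the inhibitor, 1 (Ifi30) was higher and 49 were not called. Of all tested genes 2.34% were called lower, whereas the 53 made up 51.5% of the tested members. The list was chosen with earlier results of these data known, so these shares describe it and are not a test. The list had a median log2 fold change of -0.41, and 98 of its 103 tested members had a negative value. In 73 members all 3 P-Mn/TI@mHSA libraries lay below all 3 P-Mn@mHSA libraries, a separation found in 11.7% of all tested genes. The count of lower members was 36 to 53 over the fits that left out 1 library, with 36 when P-Mn/TI@mHSA replicate 1 was left out and 47 without P-Mn@mHSA replicate 2. Of the 53 falls, 35 were called in all 9 of those fits. In bulk RNA, fewer cells expressing a gene and less RNA per cell cannot be told apart.

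Type I interferon signalling reaches its targets through a short promoter motif, the interferon-stimulated response element. The 250 bases before the transcription start (RefSeq, GRCm38.p6) were searched on both strands for the core of that element (GAAA repeated after a gap of 2 bases, which reads as TTTC on the opposite strand) in the 9098 tested genes that matched a RefSeq promoter by symbol. The motif was present in 3.4% of these promoters, in 15.4% of the 221 promoters of genes called lower and in 2.07% of the 145 promoters of genes called higher. Within the interferon-stimulated list it was present in 21 of 49 promoters of the lower genes (42.9%) and in 15 of 36 promoters of genes that were tested and not called (41.7%). Among the 172 promoters of lower genes outside the list the share was 7.56%. The AP-1 motif TGACTCA, searched likewise with its reverse complement, was present in 4.03% of all promoters, 11.8% of those of lower genes and 2.76% of those of higher genes. The kB motif (GGGA followed after 4 bases by a pair of C) was present in 26.0% of all promoters, 23.1% of those of lower genes and 26.2% of those of higher genes. Other motifs were searched likewise, with shares in the same order. The gamma-activated site (TTC and GAA around 3 bases) had 6.96, 9.5 and 4.14%. The cAMP response element TGACGTCA had 3.25, 0.0 and 2.07%, and the E2F site TTTGGCGC 0.989, 2.26 and 3.45%. Isg20, the gene with the smallest p-value, had no match to the response element in this window. The groups also differed in base composition: transcripts of lower genes had a median GC content of 44.3% and those of higher genes 54.2%. Whether base composition bears on these motif shares was not tested. A match describes the sequence, and binding was not measured.

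The windows below hold response elements of genes whose falls are described next, written 5′ to 3′ along the gene with the motif in capitals, and the last is the AP-1 match before Il1a. Ifit3 and Ifit3b share the same window, 112 to 156 bases before the start of Ifit3 in RefSeq and 144 to 188 bases before that of Ifit3b. Each line gives the gene, the window in GRCm38.p6 and its strand.
Ifit3, chr19:34583358-34583431, plus strand: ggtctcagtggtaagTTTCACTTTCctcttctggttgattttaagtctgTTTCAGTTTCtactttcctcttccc
Ifit1, chr19:34640770-34640828, plus strand: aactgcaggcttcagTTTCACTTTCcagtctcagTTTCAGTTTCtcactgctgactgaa
Gbp3, chr3:142559984-142560029, plus strand: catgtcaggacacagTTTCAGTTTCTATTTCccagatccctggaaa
Igtp, chr11:58199507-58199546, plus strand: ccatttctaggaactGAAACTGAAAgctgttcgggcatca
Irgm1, chr11:48871421-48871465, minus strand: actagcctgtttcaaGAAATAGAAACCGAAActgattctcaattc
Phf11b, chr14:59341356-59341395, minus strand: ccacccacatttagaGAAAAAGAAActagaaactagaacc
Rsad2, chr12:26456548-26456587, minus strand: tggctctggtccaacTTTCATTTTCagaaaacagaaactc
Stat2, chr10:128270261-128270300, plus strand: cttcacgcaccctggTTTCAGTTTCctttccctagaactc
Il1a, chr2:129309973-129309999, minus strand: aaaggcagagaagccTGACTCAgactt

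The IFIT proteins bind viral RNA, and ISG15 is a ubiquitin-like modifier. Of 10 tested genes of the IFIT proteins and the ISG15 machinery, 7 were lower (70.0%, against 2.34% of all genes). The median log2 fold change of the 10 was -0.58. Ifit3 (ENSMUSG00000074896, chromosome 19) was at 42.4, 46.5 and 41.9 CPM with the particle and at 17.2, 19.6 and 14.7 CPM with the inhibitor added. Every inhibitor library was far below every library without it, while the PBS libraries were lower still at 8.88 to 11.3 CPM. The fall was 2.54-fold (log2 fold change -1.34 ± 0.113 SE, n = 3 and 3, edgeR adjusted p = 2.97e-07). Its paralogue Ifit3b went from 12.8, 15.7 and 13.3 CPM to 3.93, 5.68 and 4.76 CPM, a log2 change of -1.54 (edgeR adjusted p = 8.99e-06), and the groups did not overlap. The pair shares sequence: 51.2% of the 50-base stretches of Ifit3 and 45.0% of those of Ifit3b occur in other genes, so the split of reads between them is uncertain. Ifit1 stood at 42.1, 44.1 and 34.5 CPM and fell to 23.2, 24.9 and 18.6 CPM (log2 fold change -0.86, edgeR adjusted p = 0.000246). Isg15 itself fell by 0.52 and Ube2l6, the conjugating enzyme for ISG15, by 0.51 on the log2 scale, and Ifit2 by 0.78, each with separate groups. These 6 calls held whichever library was left out. Herc6, the mouse ligase for ISG15, was called lower at -0.64 but kept the call only without PBS replicate 1, PBS replicate 2 or P-Mn@mHSA replicate 1 (adjusted p up to 0.217 in the other 6 fits), and lost it with the GC offset (-0.45, adjusted p = 0.141).

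Among the OAS family, which senses double-stranded RNA, and the RNases, 5 of 10 tested members were lower and the median log2 fold change was -0.24. Isg20, an interferon-induced exonuclease on chromosome 7, had the smallest p-value of all genes tested. It was at 116, 124 and 120 CPM with the particle and 53.1, 57.4 and 48.0 CPM with the inhibitor, against 28.8 to 33.1 CPM in PBS. The inhibitor libraries thus lay between the PBS and the P-Mn@mHSA libraries with no overlap on either side. The difference between the particles was 2.27-fold (log2 fold change -1.18 ± 0.0793 SE, 95% interval -1.35 to -1.02, edgeR adjusted p = 1.23e-08). Oasl2, an OAS-like protein, went from 159, 146 and 159 CPM to 82.3, 98.4 and 81.1 CPM (log2 fold change -0.82, edgeR adjusted p = 2.7e-06), again without overlap. Oas1a fell by 0.38 on the log2 scale (edgeR adjusted p = 0.002), although 57.6% of its 50-base stretches occur in other genes, so its reads may be shared with its paralogues. Oasl1 fell by 0.33 and Oas1g by 0.26, and 54.7% of the 50-base stretches of Oas1g occur in other genes. Oasl1 lost its call without P-Mn/TI@mHSA replicate 3 (adjusted p = 0.0615), and that of Oas1g in 4 fits, without P-Mn@mHSA replicates 1 and 2 and P-Mn/TI@mHSA replicates 1 and 3 (adjusted p up to 0.136).

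The guanylate-binding proteins and immunity-related GTPases, which attack the vacuoles of intracellular microbes, had the most negative median of the interferon roles, -0.72. Of 11 tested members 7 were lower (63.6%, against 2.34% of all genes). Gbp3 went from 24.8, 27.4 and 23 CPM to 8.67, 12.7 and 8.11 CPM. All inhibitor libraries were below both the particle libraries and the PBS libraries, which were at 15.9 to 20.5 CPM. The fall from the particle alone was 2.55-fold (log2 fold change -1.35 ± 0.15 SE, edgeR adjusted p = 8.99e-06). Igtp (50, 53.2 and 50.4 CPM against 32.3, 35.3 and 34.0 CPM) fell by 0.60 and Irgm1 (174, 176 and 170.0 CPM against 116, 133 and 117 CPM) by 0.50 on the log2 scale, both without overlap. Gbp7 and Gbp9 also kept their calls in all 9 fits, at -0.83 and -1.25. The 2 members with the most negative values were scarce. Gbp2 was at 2.77 to 3.63 CPM and fell to 0.745 to 1.27 CPM, a call lost without P-Mn@mHSA replicate 2 or P-Mn/TI@mHSA replicate 1 (adjusted p up to 0.104). Gbp2b was at 1.35 to 1.67 CPM and fell to 0.196 to 0.737 CPM, a call kept only without P-Mn/TI@mHSA replicate 3 or PBS replicate 1 or 2 (adjusted p up to 0.185 in the other 6 fits).

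Of the p200, PHF11 and Schlafen families, which include DNA sensors and restriction factors, 9 of 18 tested members were lower, none was higher, and all 18 had a negative value (median -0.55). The count was 5 when P-Mn/TI@mHSA replicate 1 was omitted. Phf11b went from 40.0, 36.5 and 35.2 CPM to 20.5, 17.5 and 17.0 CPM, a 2.03-fold fall (log2 fold change -1.02 ± 0.108 SE, edgeR adjusted p = 8.26e-06). Its groups were well apart, but 47.0% of its 50-base stretches occur in other genes. Ifi202b, a p200 protein that binds DNA, went from 64.1, 81.3 and 52.6 CPM to 24.9, 37.6 and 34.7 CPM (log2 fold change -1.03, edgeR adjusted p = 8.05e-05). Its P-Mn@mHSA libraries were spread more widely than those of Phf11b, and its PBS libraries, at 55.2 to 61.8 CPM, fell within their range. Phf11d fell by 0.67, Ifi203 by 0.57 and Slfn4, a Schlafen gene of myeloid cells, by 0.57 on the log2 scale, and Ifi203 was at -0.37 (adjusted p = 0.0224) with the GC offset. Calls that depended on 1 library were those of Ifi204, Slfn2 and Slfn5, each lost without P-Mn/TI@mHSA replicate 1 (adjusted p = 0.0584, 0.0619 and 0.0603). Of the 50-base stretches of Ifi204, 30.2% occur in other genes.

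The remaining antiviral effectors numbered 54 tested genes, with a median log2 fold change of -0.32. Of these, 25 were lower (46.3%, against 2.34% of all genes) and 1 higher (1.85%, against 1.48%). The 25 became 16 when P-Mn/TI@mHSA replicate 1 was omitted and 17 when replicate 3 was. Rsad2, which encodes viperin, an enzyme that makes a chain-terminating nucleotide, stood at 233, 249 and 258 CPM with the particle, 141, 154 and 118 CPM with the inhibitor and 12.4 to 14.4 CPM in PBS. It fell 1.79-fold between the particles (log2 fold change -0.84 ± 0.08 SE, edgeR adjusted p = 2.05e-06), and both particle groups stayed far above PBS. Its genomic neighbour Cmpk2, a mitochondrial nucleotide kinase, behaved alike: 112, 125 and 133 CPM against 65.0, 80.8 and 63.4 CPM (log2 fold change -0.82, edgeR adjusted p = 8.26e-06). Lgals9, a galectin, went from 298, 299 and 321 CPM to 213, 216 and 201 CPM (log2 fold change -0.54). Among abundant effectors, Bst2, or tetherin, fell by 0.41 and Ifitm3, which blocks viral entry, by 0.30 on the log2 scale. Ifi44, Ifi44l, Epsti1 and Nmi fell by 0.63, 0.77, 0.61 and 0.68. All 9 of these falls were called in every fit that left out 1 library. The exception in direction was Ifi30, a lysosomal thiol reductase used in antigen presentation, at 231, 198 and 223 CPM against 263, 245 and 260.0 CPM. It rose by 0.24 on the log2 scale (edgeR adjusted p = 0.045) and kept the call only without PBS replicate 1, PBS replicate 2 or P-Mn@mHSA replicate 3 (adjusted p up to 0.193 in the other 6 fits). Mx1, the classical antiviral GTPase, was near 1 CPM and gave no call (log2 fold change -0.72, 95% interval -1.66 to 0.22).

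**Figure D2:**
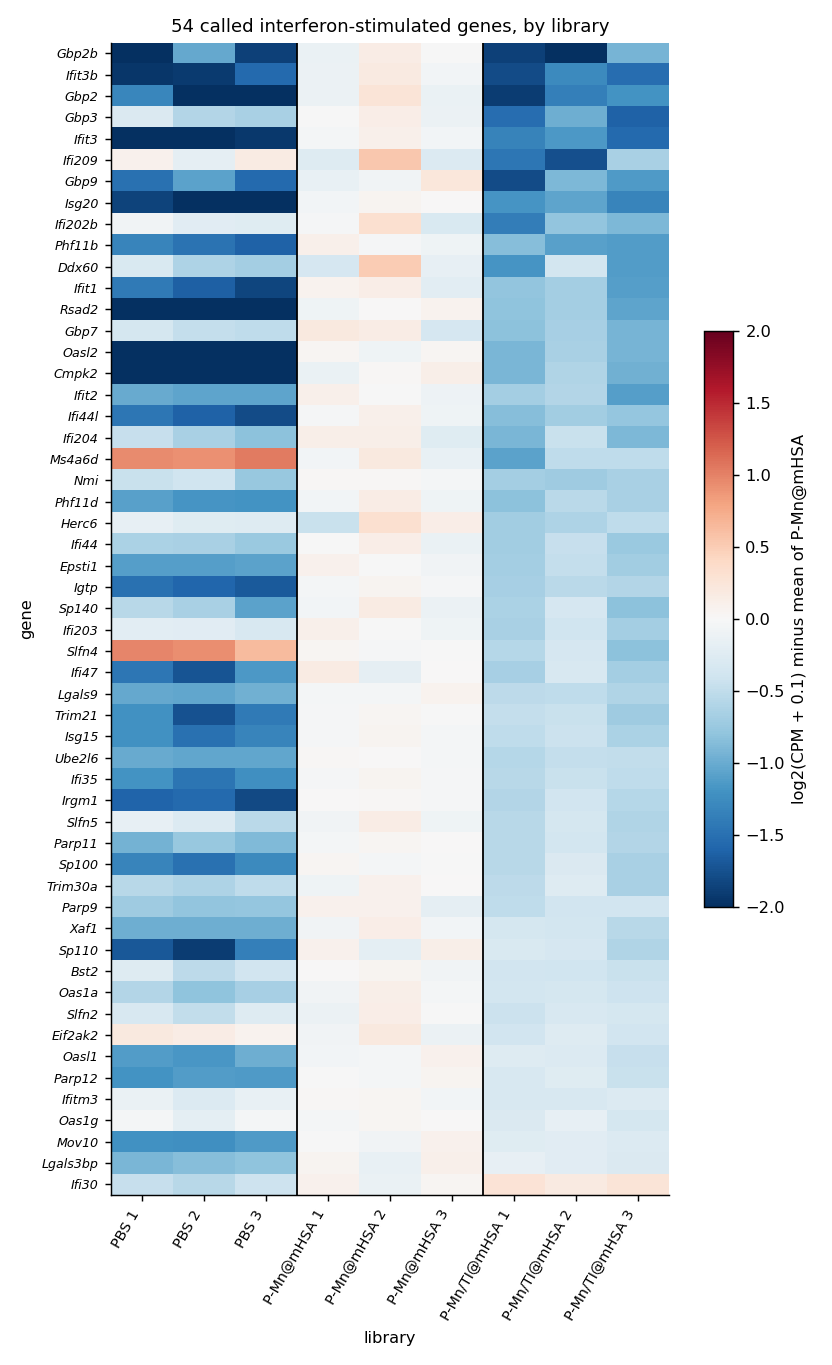
Levels of the 54 called interferon-stimulated genes in each of the 9 libraries, as log2(CPM + 0.1) minus the mean of the 3 P-Mn@mHSA libraries, sorted by the fold change between the particles. The P-Mn/TI@mHSA columns are blue (lower) in 53 rows, and the PBS columns differ from row to row, lower than both particle groups for Rsad2, Cmpk2 and Oasl2 and higher than both for Slfn4 and Ms4a6d.

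Upstream of these targets the picture was mixed. Of 12 tested signal transducers, 3 were lower. Usp18, the deconjugase that restrains interferon receptor signalling, went from 339, 337 and 328 CPM to 234, 258 and 229 CPM (log2 fold change -0.48, edgeR adjusted p = 7.99e-05). Stat2 went from 98.3, 91.5 and 100 CPM to 73.0, 71.6 and 60.8 CPM (log2 fold change -0.50, edgeR adjusted p = 0.000881). Neither pair of groups overlapped, and both calls held in all 9 fits, while that of Cish, a cytokine signalling suppressor, was kept only without P-Mn@mHSA replicate 2 (adjusted p up to 0.135 in the other 8). Irf9, the DNA-binding partner of Stat2, had a log2 fold change of -0.18 (edgeR adjusted p = 0.163).

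Among 9 tested interferon regulatory factors, Irf7 alone was called, and it was lower (11.1%, against 2.34% of all genes). Irf7, the factor that amplifies type I interferon production, went from 957, 915 and 971 CPM to 663, 675 and 649 CPM, a tight fall of 1.43-fold (log2 fold change -0.52 ± 0.0569 SE, edgeR adjusted p = 8.99e-06). With the inhibitor its range overlapped that of PBS, 657 to 730.0 CPM. Irf3 was at 47.8 to 49.2 CPM and 48.8 to 50.9 CPM, with overlap (log2 fold change 0.04, 95% interval -0.11 to 0.19). Of the nucleic acid sensors 5 of 11 were lower (45.5%, against 2.34% of all genes). Zbp1, which detects Z-form nucleic acid and triggers necroptosis, was at 172, 182 and 167 CPM against 90.3, 99.5 and 87.6 CPM, with 66.4 to 76.1 CPM in PBS. It fell 1.88-fold (log2 fold change -0.91 ± 0.0712 SE, edgeR adjusted p = 1.24e-07) with the second smallest p-value of the comparison. Dhx58, or LGP2, fell by 0.42 on the log2 scale, a call that held in all 9 fits. Ifih1, Ddx58 and Samhd1, at -0.44, -0.25 and -0.25, lost their calls without P-Mn/TI@mHSA replicate 1 or 3 (adjusted p up to 0.0995, 0.166 and 0.0741). Ddx58 lost it also without P-Mn@mHSA replicate 1 or 3, and Samhd1 without P-Mn@mHSA replicate 1. The 4 tested interferon receptor genes had no call, and Ifnar1 and Ifnar2 had log2 fold changes of 0.01 and 0.09. No interferon ligand could be tested: Ifnb1 had at most 9 counts in a library, and Ifna1, Ifna2, Ifna4, Ifna5 and Ifng had 0.

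MHC class I presentation is also induced by interferon. Of 24 tested genes 9 were lower (37.5%, against 2.34% of all genes), none was higher, and the median log2 fold change was -0.22. The immunoproteasome subunit Psmb9 was at 45.7, 45.4 and 40.1 CPM against 28.0, 31.1 and 31.5 CPM (log2 fold change -0.53, edgeR adjusted p = 0.00124). Psmb10 (-0.41), Psmb8 (-0.31) and the non-classical class I gene H2-T22 (-0.42, with 35.8% of its 50-base stretches in other genes) kept their calls in all 9 fits. The other 5 (B2m, Tap1, Tapbp, Psme1 and H2-T23) fell by 0.21 to 0.32 and lost theirs without P-Mn/TI@mHSA replicate 1 or P-Mn@mHSA replicate 1 (adjusted p up to 0.182). B2m, the class I light chain, was at -0.04 (adjusted p = 0.731) with the GC offset. The count of lower members was 4 without that library and 4 without P-Mn@mHSA replicate 1. Omission of P-Mn/TI@mHSA replicate 3 left 5, and of replicate 2 left 6. None of 7 tested MHC class II and costimulation genes was called (unadjusted values ran from -0.46 to 0.26).

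**Figure D3:**
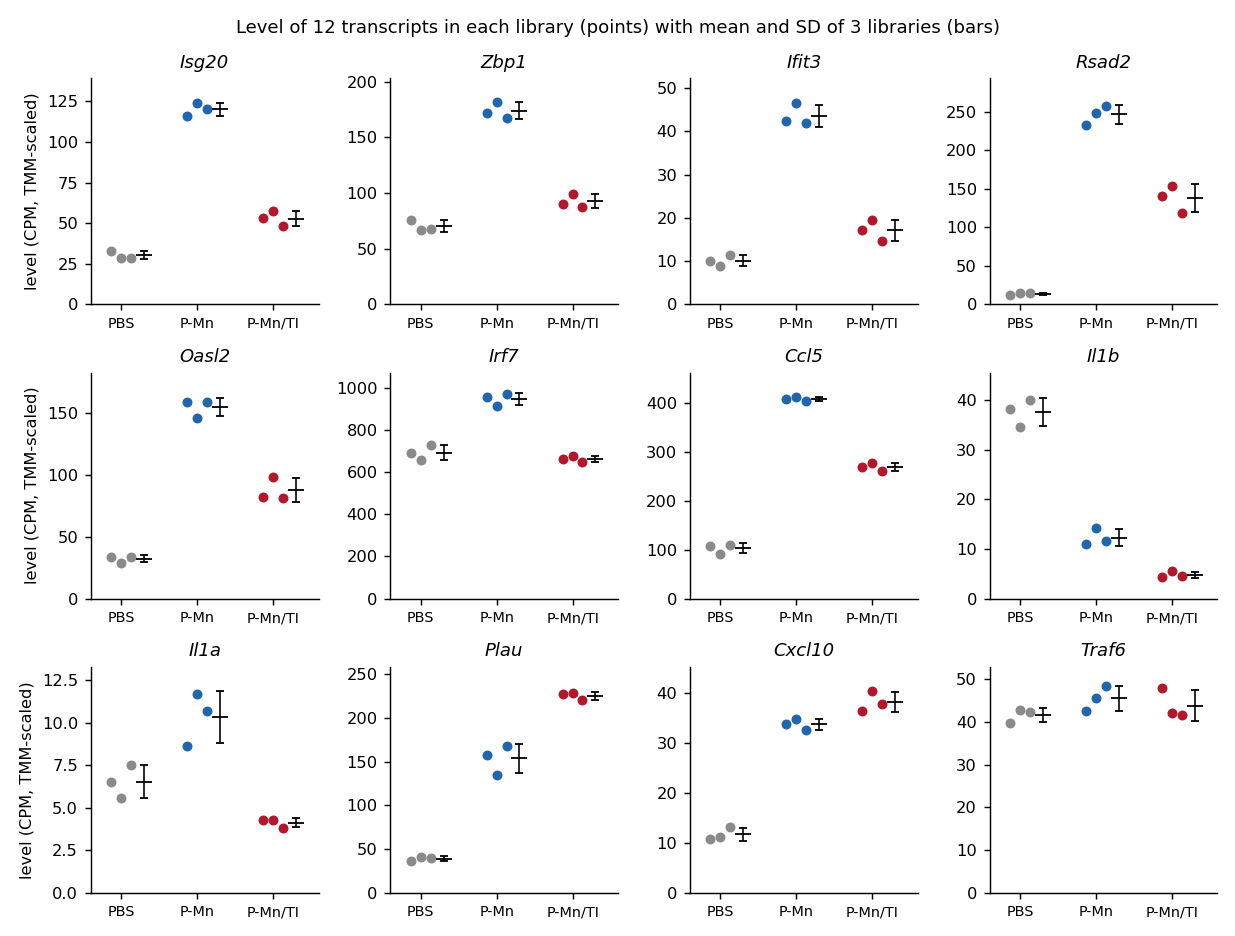
Level of 12 transcripts in CPM, 1 point per library, with the mean and SD of the 3 libraries beside the points, for PBS (grey), P-Mn@mHSA (blue) and P-Mn/TI@mHSA (red). Isg20, Zbp1, Ifit3, Rsad2, Oasl2, Irf7, Ccl5, Il1b and Il1a are lower in all P-Mn/TI@mHSA libraries than in all P-Mn@mHSA libraries, Plau and Cxcl10 are higher, and Traf6 overlaps.

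Few calls were made among the genes of the TRAF6 cascade itself. The transcript level of the target does not measure whether the protein was inhibited, and Traf6 was at 42.5, 45.5 and 48.5 CPM with the particle and 47.9, 42.0 and 41.5 CPM with the inhibitor. These ranges overlap, and the log2 fold change was -0.06 (95% interval -0.23 to 0.12, edgeR adjusted p = 0.763). Over receptors, adaptors, the ligase with its partners, and downstream kinases, 1 of 56 tested genes was lower (1.79%, against 2.34% of all genes) and none was higher, with a median of -0.05. In 15 of the 56 (26.8%, against 11.7% of all genes) the inhibitor libraries all lay below the libraries without it. Receptors made up 6 of these 15, out of 15 receptors tested, and had a median of -0.21 with no call. The intervals bound most of them: in 46 genes the 95% interval stayed within 1.5-fold, as in 9006 of all 12454 genes. The adaptor Myd88 had a log2 fold change of -0.04 (95% interval -0.18 to 0.09), the kinase Irak1 0.06 (-0.08 to 0.20), and Map3k7, which encodes TAK1, -0.02 (-0.19 to 0.15). Peli1, a ubiquitin ligase of the same cascade, was the called gene. It went from 47.7, 43.0 and 46.2 CPM to 36.4, 39.7 and 35.0 CPM (log2 fold change -0.30, edgeR adjusted p = 0.0409), without overlap. That call was lost in 5 of 9 fits, without PBS replicate 3, P-Mn@mHSA replicates 1 and 3, and P-Mn/TI@mHSA replicates 1 and 3 (adjusted p up to 0.154). With the GC offset the log2 fold change of Peli1 was -0.11 (adjusted p = 0.567). Irak3, an inhibitory IRAK kinase, fell short of the threshold at -0.42 (95% interval -0.68 to -0.16, adjusted p = 0.059).

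NF-kB subunits and the feedback genes they induce gave no call among 26 tested genes, with a median of -0.10. In 25 of them the 95% interval stayed within 1.5-fold. Nfkbia, the inhibitor that NF-kB itself induces, was at 317, 325 and 335 CPM against 340.0, 316 and 305 CPM, an overlapping pair of groups (log2 fold change -0.02, 95% interval -0.15 to 0.10). Tnfaip3, or A20, had a log2 fold change of -0.09 (-0.37 to 0.20) and Rela -0.02 (-0.15 to 0.12). Left without P-Mn@mHSA replicate 3, 1 member of this list was called lower, and 0 in the other 8 such fits.

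The inflammatory mediators divided. Of 40 tested, 16 were lower and none higher (40.0% against 2.34% of all genes), with a median of -0.36. In the fits that left out 1 library the count ran from 9 without P-Mn/TI@mHSA replicate 1 to 16, and it was 10 when either P-Mn@mHSA replicate 2 or P-Mn/TI@mHSA replicate 3 was omitted. Cytokines held 8 of these, or 42.1% of the tested cytokines. Il1b, which encodes the cytokine cleaved by the inflammasome, was at 11.0, 14.2 and 11.6 CPM with the particle, 4.4, 5.48 and 4.56 CPM with the inhibitor and 34.7 to 40.1 CPM in PBS. The 3 groups were all separate, with the inhibitor libraries the lowest. The difference between the particles was 2.54-fold (log2 fold change -1.35 ± 0.145 SE, edgeR adjusted p = 8.48e-06). Il1a, the alarmin form, was at 8.66, 11.7 and 10.7 CPM against 4.27, 4.31 and 3.82 CPM (log2 fold change -1.32 ± 0.175 SE, edgeR adjusted p = 9.16e-05). Here PBS, at 5.60 to 7.5 CPM, lay between the particles.

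Il33, another alarmin of the same family, differed from both in its reference level. It was at 38, 44.2 and 36.6 CPM against 27.0, 24.6 and 19.7 CPM, with 1.93 to 2.39 CPM in PBS (log2 fold change between the particles -0.74, edgeR adjusted p = 0.000796). Il18, Lif and Csf3 fell by 0.56, 0.44 and 0.45 on the log2 scale, and these calls held in all 9 fits. Il6 was at 9.27, 14.1 and 11.1 CPM against 4.34, 7.31 and 6.83 CPM (log2 fold change -0.90, edgeR adjusted p = 0.011). It lost the call on omission of P-Mn@mHSA replicate 2 or P-Mn/TI@mHSA replicate 1 (adjusted p up to 0.0857). Il1rn, the receptor antagonist, fell by 0.37 and lost the call without P-Mn@mHSA replicate 2 or 3 or any 1 of the P-Mn/TI@mHSA replicates (adjusted p up to 0.132), and with the GC offset (-0.21, adjusted p = 0.295). Tnf, by contrast, was at 1020.0, 1010.0 and 1150.0 CPM against 1030.0, 1030.0 and 897 CPM, with overlap (log2 fold change -0.11, 95% interval -0.25 to 0.04).

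Chemokines gave 4 falls in 13 tested genes (30.8%, against 2.34% of all genes). Ccl5, or RANTES, also an interferon target, was at 407, 411 and 403 CPM against 269, 277 and 260.0 CPM, with 92.0 to 110.0 CPM in PBS. The replicates were tight and the groups far apart (1.52-fold, log2 fold change -0.60 ± 0.0639 SE, edgeR adjusted p = 8.26e-06), and this was the chemokine call that held in all 9 fits. Ccl22 (-0.52), Ccl2 (-0.49) and Ccl3 (-0.27, with overlapping groups) each lost the call without P-Mn@mHSA replicate 2, P-Mn/TI@mHSA replicate 1 or P-Mn/TI@mHSA replicate 3 (adjusted p up to 0.0752, 0.212 and 0.19), and Ccl3 also without P-Mn@mHSA replicate 3. Cxcl10, a chemokine named for its induction by interferon gamma, did not follow: it was at 33.7, 34.8 and 32.5 CPM against 36.4, 40.3 and 37.8 CPM. All inhibitor libraries were higher, yet the difference was not called (log2 fold change 0.18, 95% interval -0.01 to 0.37, adjusted p = 0.285).

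Among enzymes and acute phase products, 4 of 8 tested genes were lower. Lcn2, the iron-siderophore-binding lipocalin, was at 101, 106 and 106 CPM against 68.0, 66.8 and 65.7 CPM (log2 fold change -0.64 ± 0.0712 SE, edgeR adjusted p = 8.99e-06). Hdc, which makes histamine, was at 28.5, 27.1 and 30.6 CPM against 17.3, 17.4 and 16.7 CPM (log2 fold change -0.74, edgeR adjusted p = 0.000142). Both pairs of groups were separate and both calls held in all 9 fits. Acod1, the itaconate-producing enzyme, and Ptgs2, or COX-2, fell by 0.35 and 0.30, with calls lost in 2 fits (without P-Mn/TI@mHSA replicate 1 or 3, adjusted p up to 0.112) and, for Ptgs2, in all fits but those without P-Mn/TI@mHSA replicate 2 or PBS replicate 1 or 2 (adjusted p up to 0.187). With the GC offset Ptgs2 was at -0.12 (adjusted p = 0.5). Nos2, the inducible nitric oxide synthase, was at 150.0, 156 and 176 CPM against 166, 154 and 140.0 CPM, with overlap (log2 fold change -0.07, 95% interval -0.22 to 0.08).

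Inflammasome and cell death genes gave 4 falls in 19 tested genes (21.1%, against 2.34% of all genes), with a median of -0.18. The falls were Casp1 and Casp4, the inflammatory caspases, at -0.61 and -0.58, Mlkl, the necroptosis effector, at -0.35, and Naip2, a sensor of bacterial secretion systems, at -0.34. None of these calls held in every fit. The count was 0 without P-Mn/TI@mHSA replicate 1. It was 1 when either P-Mn/TI@mHSA replicate 3 or P-Mn@mHSA replicate 2 was omitted, with Casp1 at -0.38 (adjusted p = 0.211) without the latter. With the GC offset Casp4 was at -0.36 (adjusted p = 0.0636) and Casp1 at -0.44 (adjusted p = 0.0767). Nlrp3 was not called (log2 fold change 0.10, 95% interval -0.07 to 0.27).

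**Figure D4:**
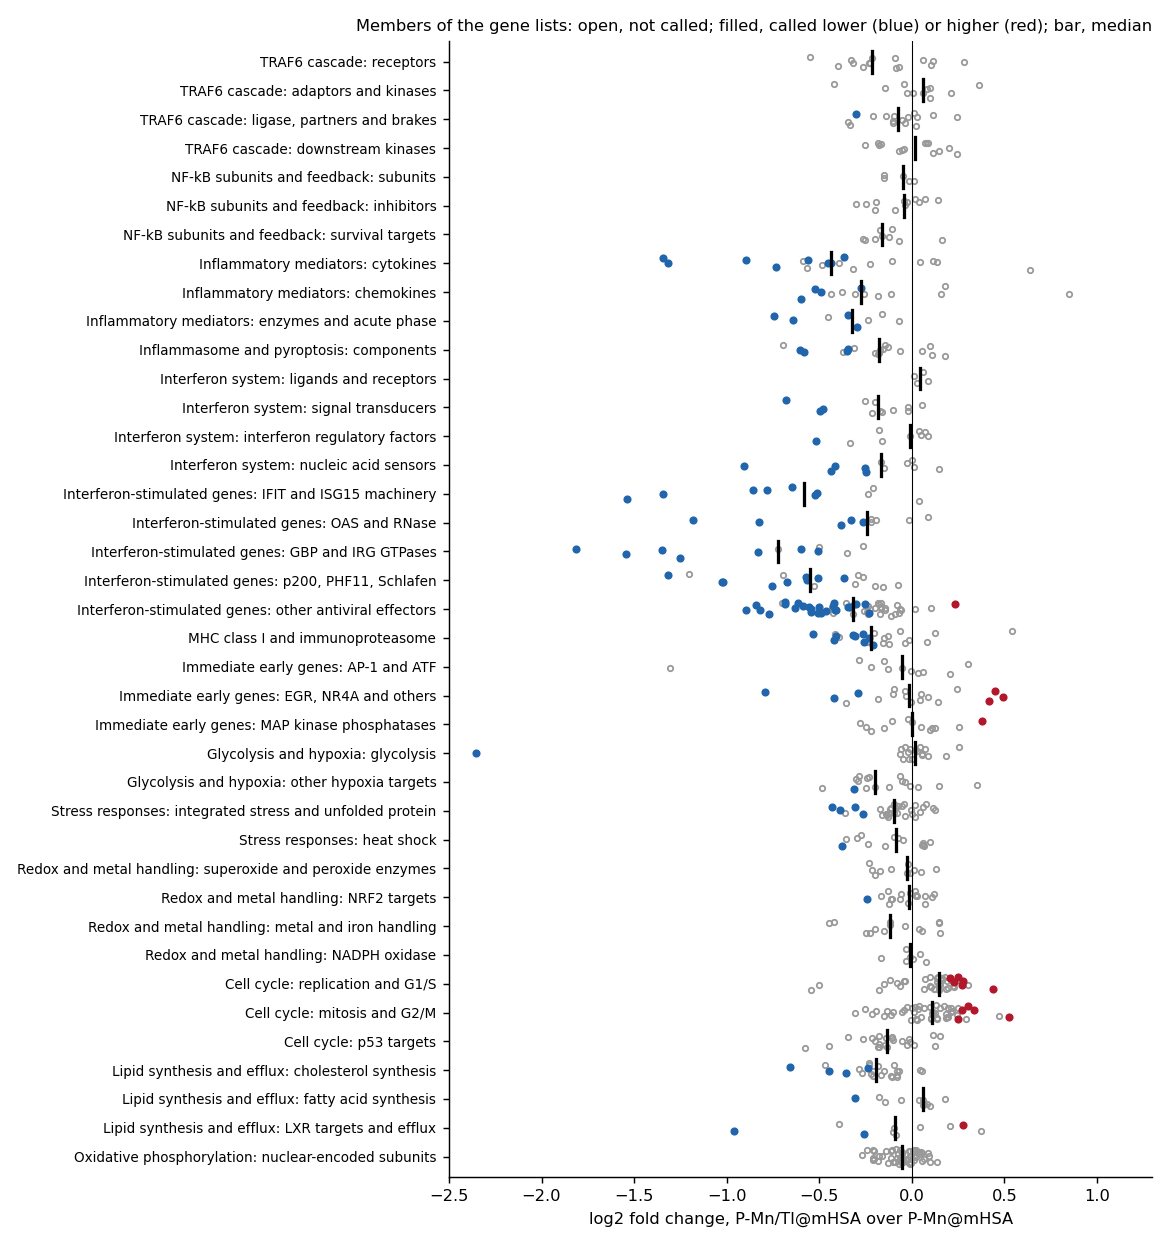
Log2 fold change of P-Mn/TI@mHSA over P-Mn@mHSA for the tested members of 14 gene lists, divided by role, 1 point per gene, with the role's median as a bar. Filled blue points (called lower) gather in the interferon-stimulated roles and the cytokines, the TRAF6 and NF-kB roles hold open points (not called) with 1 exception, Peli1, and medians from -0.21 to 0.06, and filled red points (called higher) lie mainly in the cell cycle.

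Rises were fewer and smaller. Plau, which encodes urokinase, the plasminogen activator, was the strongest by p-value. It was at 158, 135 and 168 CPM with the particle, 227, 228 and 220.0 CPM with the inhibitor and 35.8 to 41.2 CPM in PBS. The inhibitor libraries were the highest of the 9, and the rise over the particle alone was 1.46-fold (log2 fold change 0.55 ± 0.0737 SE, edgeR adjusted p = 0.000105). It was 1 of 11 tested genes of the matrix protease and urokinase system to be called (9.09% higher, against 1.48% of all genes). Trem2, a lipid-sensing receptor, was at 95.5, 91.8 and 84.4 CPM against 110.0, 106 and 124 CPM (log2 fold change 0.33), and lost the call without P-Mn/TI@mHSA replicate 1 or 3 (adjusted p up to 0.113). Msr1, a scavenger receptor, fell by 0.29 and Itgam, the integrin chain CD11b, by 0.30 on the log2 scale, with calls lost in 5 and 8 fits, both without PBS replicate 3, P-Mn@mHSA replicates 1 and 2 and P-Mn/TI@mHSA replicate 1 among them (adjusted p up to 0.172 and 0.251). With the GC offset Msr1 was at -0.07 (adjusted p = 0.645), and 72.4% of the 50-base stretches of Itgam occur in other genes. Outside the lists, Lpl, the lipoprotein lipase, rose from a mean of 149 to 193 CPM, with a log2 fold change of 0.37 (edgeR adjusted p = 0.000605).

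Replication and G1/S genes had a median of 0.15: 6 of 40 tested members were higher, 15% against 1.48% of all genes, and none was lower. In 22 members all inhibitor libraries lay above all libraries without it, a separation found in 12.3% of all tested genes. Ung, which excises uracil from DNA, was at 35.3, 33.9 and 32.7 CPM against 44.0, 45.1 and 49.0 CPM (log2 fold change 0.44, edgeR adjusted p = 0.00395), the member whose call held in all 9 fits. Uhrf1, Chaf1a, Ccne1, Tk1 and Mcm2 rose by 0.21 to 0.28, and each lost the call in 3 to 7 fits, those without P-Mn@mHSA replicate 2, P-Mn/TI@mHSA replicate 1 and P-Mn/TI@mHSA replicate 3 among them (adjusted p up to 0.193). Mitosis and G2/M genes had a median of 0.11 with 5 of 50 higher (Cdca8, Ncapd2, Incenp, Bub1b and Oip5) and none lower. These 5 are 10.0% of the tested members, against 1.48% of all genes. The count of higher G1/S genes was 1 without P-Mn@mHSA replicate 2, P-Mn/TI@mHSA replicate 1 or P-Mn/TI@mHSA replicate 3. The higher G2/M genes numbered 1 when P-Mn/TI@mHSA replicate 3 was omitted, and 2 when replicate 1 of either particle group was. Outside these lists the mitotic protease Espl1, or separase, rose by 0.46 on the log2 scale, a call that held in every fit that left out 1 library. None of 24 tested p53 targets was called.

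The immediate early genes split, with 4 of 42 higher (9.52%, against 1.48% of all genes) and 3 lower (7.14%, against 2.34%). The higher ones included Klf2 (12.1 to 14 CPM, and higher in all inhibitor libraries) and Klf10 (29.9, 24.7 and 29.9 CPM against 38.4, 40.6 and 36.7 CPM), Krüppel-like factors that rose by 0.50 and 0.45, Myc (0.42) and the phosphatase Dusp7 (0.38). The lower ones were the nuclear receptors Nr4a2 (-0.79) and Nr4a1 (-0.42) and Ier3 (-0.29). The call of Ier3 was the one to hold in all 9 fits. That of Nr4a2 was lost without P-Mn/TI@mHSA replicate 3 (adjusted p = 0.0723), and that of Nr4a1 was kept only without P-Mn@mHSA replicate 2. No higher member was called without P-Mn@mHSA replicate 2, P-Mn/TI@mHSA replicate 1 or P-Mn/TI@mHSA replicate 2.

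In lipid metabolism, 4 of 24 cholesterol synthesis genes were lower (16.7%, against 2.34% of all genes) and none higher, with a median of -0.19. The groups were separate, with the inhibitor lower, in 13 (54.2%, against 11.7% of all genes). Hmgcs1, an early enzyme of the pathway, was at 43.6, 47.5 and 41.2 CPM against 29.9, 35.4 and 31.7 CPM (log2 fold change -0.45, edgeR adjusted p = 0.00493), a call that held in all 9 fits. Sc5d (-0.36), Idi1 (-0.66) and Cyp51 (-0.24) lost theirs in 2 to 8 fits, those without P-Mn/TI@mHSA replicate 1 or 3 among them (adjusted p up to 0.204), and with the GC offset Sc5d was at -0.23 (adjusted p = 0.11). The count was 1 without P-Mn/TI@mHSA replicate 3. It was 2 when replicate 1 of either particle group, or P-Mn@mHSA replicate 2, was omitted. The cholesterol exporter Abca1 was at 6.09, 5.30 and 6.39 CPM against 4.20, 2.67 and 2.28 CPM (log2 fold change -0.96, edgeR adjusted p = 0.00879), a call lost without P-Mn/TI@mHSA replicate 3 (adjusted p = 0.0556). Abcg1, its partner exporter, went the other way at 0.27 and lost the call without P-Mn@mHSA replicate 2 or any 1 of the P-Mn/TI@mHSA replicates (adjusted p up to 0.148). Npc2, a lysosomal cholesterol carrier, fell by 0.26, a call lost without P-Mn/TI@mHSA replicate 1 (adjusted p = 0.0763). Scd1, the stearoyl desaturase, fell by 0.30, a call lost without P-Mn@mHSA replicate 1 or 3 or P-Mn/TI@mHSA replicate 2 or 3 (adjusted p up to 0.196).

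Of 44 tested stress genes 5 were lower (11.4%, against 2.34% of all genes) and none was higher, with a median of -0.09. The groups were separate, with the inhibitor lower, in 14 (31.8%, against 11.7% of all genes). They included the cystine transporter gene Slc7a11 (-0.39), the stress factor Ddit3, or CHOP (-0.43), the glutathione-degrading enzyme gene Chac1 (-0.31) and the co-chaperone gene Chordc1 (-0.38). None of these 5 was called without P-Mn/TI@mHSA replicate 1. With the GC offset 1 stress gene was lower, Chac1 at -0.36 (adjusted p = 0.0121). Slc7a11 was then at -0.22 (adjusted p = 0.102), Ddit3 at -0.36 (adjusted p = 0.057) and Chordc1 at -0.13 (adjusted p = 0.309). Of 51 redox and metal handling genes 1 was lower (1.96%, against 2.34% of all genes). It was Hmox1, or heme oxygenase, at -0.24 (edgeR adjusted p = 0.0305). Hmox1 lost the call without P-Mn@mHSA replicate 1 or 3 or any 1 of the P-Mn/TI@mHSA replicates (adjusted p up to 0.144). The superoxide dismutase gene Sod2 was at 146, 146 and 134 CPM against 139, 146 and 145 CPM (log2 fold change 0.01, 95% interval -0.12 to 0.15). None of 59 tested nuclear genes of oxidative phosphorylation and none of 32 ribosomal protein genes was called with all libraries, and 4 and 3 of them were called lower without P-Mn@mHSA replicate 3. Mitochondrial transcripts gave 3 falls in 12 tested genes, while 2.34% of all genes were lower. The falls were mt-Atp6 at -0.63, mt-Co3 at -0.56 and mt-Nd1 at -0.39. The count of lower members was 1 on omission of P-Mn/TI@mHSA replicate 3, and 0 on omission of P-Mn/TI@mHSA replicate 1. The count was also 0 when P-Mn@mHSA replicate 2, which had the high mitochondrial share, was omitted. The values were then -0.34, -0.29 and -0.20. Of the 50-base stretches of mt-Atp6 99.5% occur in other genes, and of those of mt-Co3 99.9%. The assignment of reads to mt-Atp6 and mt-Co3 is therefore uncertain, while the share for mt-Nd1 was 0.0%. Glycolysis and hypoxia targets gave 2 falls in 36 (5.56%, against 2.34% of all genes), the oxidoreductase gene Ero1a at -0.31 and Gapdh. Ero1a lost the call without P-Mn/TI@mHSA replicate 3 (adjusted p = 0.0755) and with the GC offset (-0.16, adjusted p = 0.231). Gapdh rested on P-Mn@mHSA replicate 2: its log2 fold change was -2.35 (edgeR adjusted p = 0.034) with that library and 0.10 (adjusted p = 0.685) without it, and 27.2% of its 50-base stretches occur in other genes.

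Most of the 15 largest rises came from moderately expressed genes outside the lists. Tmem26, a membrane protein gene, went from a mean of 18 to 26.4 CPM, with a log2 fold change of 0.55 (edgeR adjusted p = 0.00302). Rnf157, a ubiquitin ligase gene, rose by 0.51 and Fam20c, which encodes the kinase of secreted phosphoproteins, by 0.51 on the log2 scale. These 3 calls held in all 9 fits. Pou2f2, the transcription factor Oct-2, rose from 55.7 to 79.7 CPM (log2 fold change 0.52) and lost the call without P-Mn@mHSA replicate 2, P-Mn/TI@mHSA replicate 1 or P-Mn/TI@mHSA replicate 2 (adjusted p up to 0.083). Ccdc116 rose by 0.74, a call lost without P-Mn@mHSA replicate 2 (adjusted p = 0.0564). Among the falls, Cstdc4, a stefin-like protease inhibitor gene, dropped by 0.96, a call lost without P-Mn/TI@mHSA replicate 1 (adjusted p = 0.0566). Its level was 33.7 CPM in P-Mn@mHSA replicate 2 against 17 and 18.4 CPM in the other libraries of that group, and without that library the log2 fold change was -0.58 (adjusted p = 0.0136), or -0.45 (adjusted p = 0.0613) with the GC offset as well. The 2 rises past 2-fold were predicted genes without a known role, Gm2606 at 2.96 and Gm6087 at 1.29. Gm2606 was at 108 CPM in P-Mn/TI@mHSA replicate 2 against 6.23 and 4.62 CPM in the other libraries of that group, and its log2 fold change was 0.08 (adjusted p = 0.886) when replicate 2 was omitted. The call of Gm6087 was also lost on omission of that library (adjusted p = 0.16).

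Further called genes outside the lists had small p-values. Apol9b fell from a mean of 108 to 68.6 CPM, with a log2 fold change of -0.66 (edgeR adjusted p = 2.16e-05). Upp1, uridine phosphorylase, fell from 34.1 to 19.9 CPM (log2 fold change -0.77), and Siglec1, the macrophage sialic acid receptor that interferon induces, from 225 to 146 CPM (log2 fold change -0.62). Spp1, the secreted phosphoprotein osteopontin, was among the most abundant, falling from 2690.0 to 1990.0 CPM (log2 fold change -0.43). Rgs1, a regulator of G protein signalling, fell by 0.65 and Clec4e, the C-type lectin Mincle, by 0.43, and with the GC offset they were at -0.41 and -0.27, both still called. Rises outside the lists included Sorl1, a sorting receptor, at 0.46, Lrp1, a scavenger and clearance receptor, at 0.43, Cpt1a, which imports fatty acids into mitochondria, at 0.45, the DNA methyltransferase Dnmt1 at 0.29 and the mitotic factor Foxm1 at 0.33. Lrp1, Dnmt1 and Foxm1 lost the call without P-Mn/TI@mHSA replicate 1 (adjusted p = 0.0559, 0.0527 and 0.0815), and Foxm1 also without P-Mn@mHSA replicate 2. These genes were chosen after their values were seen.

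Fold changes followed the base composition of the transcripts. Over 5 equal groups of genes from the lowest GC content to the highest, the median log2 fold change went from -0.14 through -0.04, 0.02 and 0.05 to 0.06. Genes called lower had a median GC content of 44.3%, genes called higher 54.2% and all genes 49.7%. The GC offset left 192 lower and 170 higher genes. It left 47 lower and 0 higher interferon-stimulated genes with a median of -0.36. Within each of the 5 groups the list's median stayed below that of all genes after the offset, at -0.45, -0.43, -0.36, -0.24 and -0.24 from low to high GC against 0.01 to 0.02. With the offset and without P-Mn@mHSA replicate 2, 44 members were lower. Isg20, with 57.4% GC, had a log2 fold change of -1.23 with the offset, Irf7 -0.55, Il1b -1.30 and Plau 0.56. Of 90 named genes that were called, 19 lost the call with the offset, among them Peli1, Msr1, Il1rn, Ero1a and Slc7a11. With the offset, 5 G1/S and 8 G2/M genes were higher, and of the mitochondrial transcripts 0 were lower and 2 higher. What sets the GC trend was not tested.

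**Figure D5:**
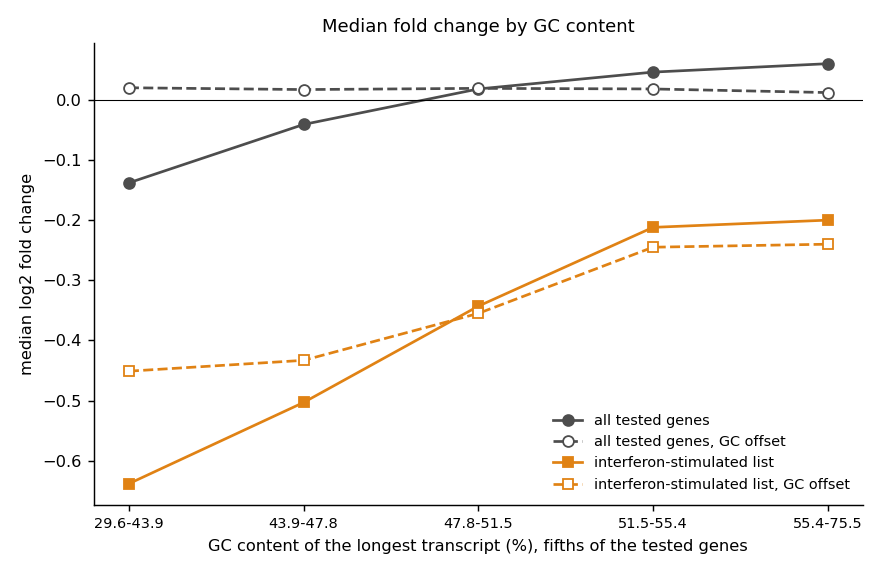
Median log2 fold change of P-Mn/TI@mHSA over P-Mn@mHSA in 5 equal groups of tested genes ordered by the GC content of the longest transcript (percent). All tested genes (grey) go from -0.14 to 0.06 and are near 0 with the offset (dashed), while the interferon-stimulated list (orange) stays below 0 in each group with and without it.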

How the data were processed

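Per the labels, RNA from RAW264.7 cells was sequenced. The submitters' processing notes name FastQC, cutadapt 1.9 and GRCm38. No aligner, counter or strand setting is named in them. The authors deposited 1 table of read counts per gene with FPKM values. Coordinates of the table did not match the annotation at hand and were not used.

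Genes were kept by edgeR's filterByExpr and tested on the deposited counts with edgeR 4.0.16 (R 4.3.3; TMM, glmQLFit, glmQLFTest, all 9 libraries, group as the only term), with Benjamini-Hochberg adjusted p under 0.05. Intervals are 95%. DESeq2 1.42.0 and limma 3.58.1 (on log2 of the authors' FPKM plus 1 or 0.1) were alternatives. Shared sequence is the share of a gene's 50-base stretches found in other genes' transcripts (GENCODE M21), and GC content is that of the longest transcript.

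Named genes were the 15 called genes with the largest falls and the 15 with the largest rises (groups apart, mean FPKM of at least 2 in the higher group, predicted genes left out), the 3 called members of lowest p in each role of each list, and a set of index genes. Other genes in the text were chosen after their values were seen. Members and lists were chosen with earlier results of these data known. Same-numbered libraries did not deviate together (correlations of deviations -0.066 to 0.01), so the numbers were not taken to pair samples. Totals of 13994570 to 15543439 counts per library limit the precision of scarce transcripts. A result on 1 withheld item is not reported here.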

Additional observations from a re-analysis of the deposited data

How the results depend on the processing

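With all libraries edgeR called 476 genes, 292 lower and 184 higher (38.7% higher). With the replicate block, which treats same-numbered libraries as pairs, 312 genes were called (97 higher and 215 lower, 31.1% higher), and 46 interferon-stimulated genes and 13 inflammatory mediators were lower. Calls numbered 415 with the 6 particle libraries alone, 476 with the size factors of DESeq2, 478 with upper-quartile scaling and 500 with a strict count filter. DESeq2 called 647 (301 higher, 346 lower, 46.5% higher), and no filter on low counts 791 (298 higher, 493 lower). limma on log2(FPKM + 1) called 144 (37 higher, 107 lower, 25.7% higher), on log2(FPKM + 0.1) 140 (34 higher, 106 lower, 24.3% higher), and without a filter 42 (7 higher, 35 lower, 16.7% higher). A further 3 settings were chosen after seeing the data. The GC offset gave 362 (170 higher, 192 lower, 47.0% higher), GC with length 585 (334 higher, 251 lower, 57.1% higher), and the GC offset without P-Mn@mHSA replicate 2 gave 184 (57 higher, 127 lower, 31.0% higher). Leaving out 1 library gave 129 to 794 called genes, 30 to 327 higher and 99 to 467 lower. Among P-Mn@mHSA libraries the count moved by over 1.5 times on omission of replicate 1 (272), replicate 2 (202) or replicate 3 (794), and among P-Mn/TI@mHSA libraries on omission of replicate 1 (129) or replicate 3 (213). Of the 53 lower interferon-stimulated genes, DESeq2 called 50, limma on log2(FPKM + 1) 34 and limma without a filter 15. Over the fits that left out 1 library, the log2 fold change of Gapdh ran from -2.851 to 0.105, the positive value being that without P-Mn@mHSA replicate 2 (0.088 with the GC offset as well). That of Nos2 ran from -0.13 to 0, and that of Sod2 from -0.028 to 0.035 with -0.004 without P-Mn/TI@mHSA replicate 2. Traf6 was at 0.005 with the GC offset. Except for Gapdh, none of these genes was called in the fit with all libraries. The cause of these shifts was not tested.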
